A study of Mus musculus with 22 samples.

Results

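Rab GTPases were described in 22 single mouse astrocytes whose calcium response to ethanol (EtOH) had been recorded before their RNA was collected. The members were all gene symbols made of "Rab", a number and at most a letter and a further digit, which gave 58 of the 23453 symbols in the count table. Of these, 55 had a read and 46 were read in 5 or more cells. The cells were primary cultured cortical astrocytes of newborn C57BL/6 pups, taken at postnatal day 0 to 1, and the labels name no transgene or deletion. For all cells the labels give 1 procedure: the cultures were shaken and treated with cytosine arabinoside against microglia, kept without serum before recording, loaded with the calcium dye Fluo-4, exposed to EtOH and at the end to ATP, and each cell was then aspirated with a micropipette. Cells of the study were collected at more than 1 time after EtOH, and the labels do not give the time for these 22. The 4 groups are response types and not treatments: 6 cells with a sustained response (S-type), 6 with a transient response (T-type), 5 with a mixed pattern (M-type) and 5 with no response (NR). No cells without EtOH are among the samples analysed here. Which pup or culture a cell came from is not in the labels. Each type therefore counts as 1 sample, and levels, ratios and ranges are given below without a test between types.

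Rab proteins are small GTPases that sit on the membranes of particular organelles and switch between an inactive GDP form and an active GTP form. Exchange factors (GEFs) load them with GTP, GTPase-activating proteins (GAPs) switch them off, prenyl groups anchor them in the membrane, and GDP dissociation inhibitors (GDIs) extract them again. In the active form they recruit effectors that bud, move, tether or fuse vesicles, and in astrocytes such traffic carries transporters and receptors to the surface and delivers material to lysosomes.

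The depth of the cells set what could be seen. A cell had 2937786 to 22131076 counted reads, and size factors, the scaling of a cell to the others, were 0.183 to 1.56 in T-type cells and 0.923 to 2.31 in the other types. T-type cells 2 and 3 had the smallest factors, 0.276 and 0.183, so 1 read weighs most there. T-type cell 3 had the fewest reads, 2937786, while T-type cell 2 had 12564138. The main counts of Rab genes in T-type cells are also given without these 2 cells. Of 15 astrocyte markers 14 had reads in every type (Gjb6 only in S-type cells), while markers of other cell types were also read. Oligodendrocyte lineage markers had a read for 9 of 10 genes (not Sox10) and 34.0 to 3329 counts in 1000000 reads (CPM) in a cell, with Olig1 read in all 22 cells. Neuronal markers had 11 of 12 (not Slc17a7) and 38.1 to 2076 CPM, with Stmn2 at levels of 7330 in S-type and 651 in T-type cells. Mural and fibroblast markers had 7 of 8 (not Rgs5) and 31.7 to 7410 CPM, with Acta2 read in all 22 cells, and endothelial markers had 5 of 7 (not Cldn5 and Cdh5) and 0 to 200.005 CPM. Microglial markers took 0.792 to 65.6 CPM in NR cells, with 12 of 13 genes read, against at most 8.04 in T-type cells (12 of 13), 1.58 in M-type cells (11 of 13) and 0.492 in S-type cells (5 of 13). In S-type cells 19 of 20 S phase genes and 20 of 20 G2/M genes were at least 2-fold above NR cells (25.1% of all genes). G2/M genes took 20.0 to 11005 CPM in S-type and 0.622 to 452 CPM in NR cells, so the cells overlapped. T-type cells had 14 of 20 S phase genes at least 2-fold above NR cells (28.4% of all genes). Without T-type cells 2 and 3 it was 15, but with the median cell 6 were higher and 5 lower. S phase genes took 84.4 to 7401 CPM in T-type cells, with T-type cell 5 the highest, and 300 to 738 CPM in NR cells. The cells thus overlapped. Of the G2/M genes 9 were at least 2-fold higher and 6 lower in T-type than in NR cells. Against S-type cells 17 of 20 G2/M genes were at least 2-fold lower in T-type cells (32.6% of all genes). Without T-type cells 2 and 3 it was 16 of 20. The part of these differences in the Rab values was not tested.

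The Rab family was broadly read in these astrocytes. In all 22 cells a read was found for 18 Rab genes (31.0% of the 58, against 15.6% of all symbols), and 46 (79.3%, against 54.2%) had a read in at least 5 cells. At least 10 reads in every cell were found for 11 members: Rab1, Rab1b, Rab2a, Rab5c, Rab6a, Rab10, Rab11a, Rab12, Rab18, Rab21 and Rab31. The 9 members read in only 1 to 4 cells were Rab9b, Rab15, Rab19, Rab33a, Rab37, Rab38, Rab39, Rab42 and Rab44. Rab17 and Rab25, which serve recycling in epithelial cells, and Rab20 had no read in any of the 22 cells. Over the 354918409 reads of all cells a count of 0 allows at most 0.00845 CPM, and this limit, as all counting intervals here, covers counting error only because amplified reads are not independent molecules.

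Members that were seldom read were not all low. Rab38 had 76 reads, all of them in T-type cell 3, where its normalized count was 415, and Rab37 had 158.7 in T-type cell 4 and 4.69 in M-type cell 3. Rab9b reached 143 in NR cell 2 and had reads otherwise only in M-type cells 4 and 5. Rab19 was read only in M-type cell 3 and Rab33a only in NR cell 2, while Rab15, Rab39, Rab42 and Rab44 had 1 to 19 reads in all. Such values of a single cell carry no replicate.

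The promoters of the members were looked at for features that the choice of members did not use, and 5 are shown because they span the range from a gene read in every cell to one read in none. They are the 250 bases before the start site in the RefSeq table for GRCm38.p6, 5′ to 3′ on the strand of the gene, with the dinucleotide CG in capitals. Rab31 and Rab10 had high levels in all types. Rab5c had T-type and NR cells that did not overlap after scaling by size factors. Rab39b had a ratio between types that rests on 1 cell, and Rab25 had no read.
Rab31: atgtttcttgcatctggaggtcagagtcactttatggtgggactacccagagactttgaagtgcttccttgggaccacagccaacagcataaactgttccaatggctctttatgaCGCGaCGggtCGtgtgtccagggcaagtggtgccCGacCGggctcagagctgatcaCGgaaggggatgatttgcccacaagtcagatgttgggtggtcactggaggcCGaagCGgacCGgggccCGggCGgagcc
Rab10: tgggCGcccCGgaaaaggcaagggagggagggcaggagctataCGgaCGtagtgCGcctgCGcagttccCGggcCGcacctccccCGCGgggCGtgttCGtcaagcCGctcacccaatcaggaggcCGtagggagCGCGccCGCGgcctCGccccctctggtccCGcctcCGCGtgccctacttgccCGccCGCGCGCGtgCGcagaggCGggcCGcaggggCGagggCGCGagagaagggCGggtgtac
Rab5c: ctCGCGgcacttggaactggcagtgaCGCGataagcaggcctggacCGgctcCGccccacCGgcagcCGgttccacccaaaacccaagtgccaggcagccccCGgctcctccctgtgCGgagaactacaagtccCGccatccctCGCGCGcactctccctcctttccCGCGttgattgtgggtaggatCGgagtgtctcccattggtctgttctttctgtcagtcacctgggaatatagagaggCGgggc
Rab39b: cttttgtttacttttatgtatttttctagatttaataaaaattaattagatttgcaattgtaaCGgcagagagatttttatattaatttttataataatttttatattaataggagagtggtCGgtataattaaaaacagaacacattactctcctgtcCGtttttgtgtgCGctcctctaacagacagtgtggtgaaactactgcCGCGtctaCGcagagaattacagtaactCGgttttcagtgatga
Rab25: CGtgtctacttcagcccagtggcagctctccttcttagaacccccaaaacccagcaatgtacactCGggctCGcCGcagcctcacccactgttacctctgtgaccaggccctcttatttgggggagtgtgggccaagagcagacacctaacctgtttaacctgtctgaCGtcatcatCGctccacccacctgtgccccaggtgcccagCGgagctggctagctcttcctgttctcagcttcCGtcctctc
The windows lie at chr17:65772753-65773002 (- strand), chr12:3309970-3310219 (- strand), chr11:100738216-100738465 (- strand), chrX:75578232-75578481 (- strand) and chr3:88548280-88548529 (- strand), each directly upstream of the first exon of the gene and, for Rab25, 21 bases from the start in the annotation used for exon lengths. They held 12, 34, 18, 8 and 8 CG dinucleotides. A window was found for 48 members, with the entry nearest to the annotated gene start taken where there were several. The windows of all genes given beside them keep every entry of a gene, so the 2 sets were not chosen alike. The median number of CG dinucleotides was 21.5 in the 16 members read in all 22 cells, 16 in the 23 read in 5 to 21 cells, 11.5 in the 6 read in 1 to 4 cells and 8 in the 3 without a read, against 6 over all 32851 windows of the table. The GC box GGGCGG, on either strand, was in 33 of 48 member windows (68.8%) and in 32.7% of all windows. The TATA box TATAAA, on either strand, was in 4 member windows (8.3%), those of Rab3b, Rab7, Rab39b and Rab42, and in 12.4% of all windows. The 2 motifs do not overlap in sequence, and a match is a description of letters and not a site of binding.

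Compared per kilobase of exon, to allow for length, 12 members stood at the top of the family in the mean over the 4 types. Rab31, which acts between the trans-Golgi network and endosomes, had the highest level, with 3240.2 normalized counts per kilobase. Rab1, which tethers vesicles from the endoplasmic reticulum (ER) at the Golgi, followed at 3211, and Rab10, which delivers transporters such as the glucose transporter to the plasma membrane, at 2231. Rab2a and Rab6a, both of the Golgi, had 2159 and 1442, Rab9 of the late endosome had 1191, Rab11a of the recycling endosome had 1057, and Rab18 of the ER and lipid droplets had 826. The list closed with Rab7l1 (also called Rab29, a partner of the kinase LRRK2) at 774, Rab27b of secretory vesicles at 479, Rab24, linked to autophagy, at 388 and Rab14 of endosomes at 374. The ranges over the 22 cells overlapped for all neighbours in this order. T-type cell 2 set the place of Rab27b: without that cell its level was 149.4 per kilobase, rank 20 of 46 members, Rab28 entered the list at rank 12 with 352, and Rab1, at 3095, stood above Rab31, at 3058. Not corrected for length, Rab1 had the most reads of the family in 10 cells, Rab31 in 9, and Rab10, Rab18 and Rab27b in 1 each. The amplification starts from the 3′ end of a transcript, so a value per kilobase understates long transcripts.

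**Figure D1:**
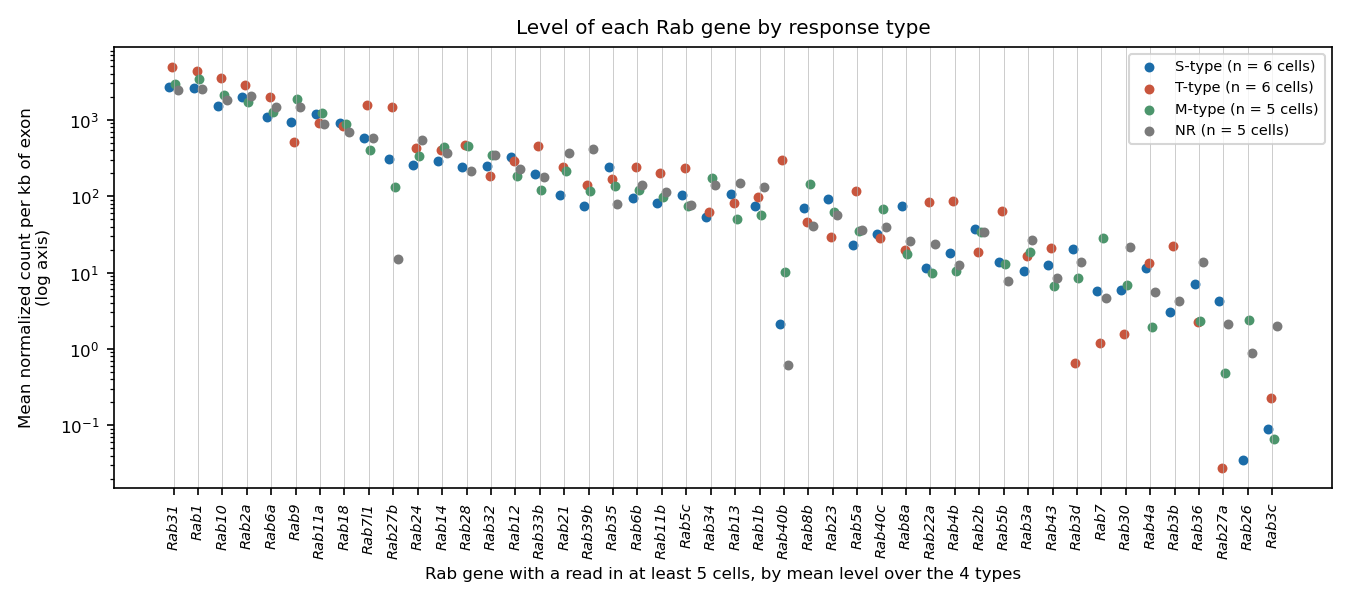
Mean normalized count per kilobase of exon (log axis) of the 46 Rab genes read in 5 or more cells, as 1 point for each response type; a type without a read has no point. Rab18 has its 4 points between 699 and 895, while Rab27b has its NR point at 15.2 and its T-type point at 1463.

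Rab10 and Rab31 were read at high levels in every cell. Rab10 had normalized counts of 3915 to 7342 (median 5377) in S-type cells and 4624 to 22286 (median 10204) in T-type cells. In M-type cells 1 to 5 Rab10 had 6789.6, 7446, 6903, 10848 and 5009, and in NR cells 1 to 5 it had 7498, 4922, 6240.5, 6736 and 6172. Only T-type cells 2, 3 and 4 stood above the rest, and the other 19 cells lay between 3915 and 10848. As a share of reads T-type cell 2 lay below M-type cell 4. Their Rab10 reads were 6145 of 12564138 and 20910 of 19727399. Rab31 had 6275 to 14390.1 (median 10274) in S-type cells and 3696 to 32585 (median 17536) in T-type cells. In M-type cells it had 4691, 6954, 6865, 17443 and 20363, and in NR cells 5564, 12201, 7932, 11209 and 9803. With size factors Rab31 was lowest in T-type cell 5 and highest in T-type cell 2. On that scale the T-type cells spanned the values of all other types. As a share of reads M-type cell 5 was highest, with 47133 of 22131076, against 8985 of 12564138 in T-type cell 2. Several of the 12 members were nearly absent from 1 or more cells. Rab14 had 21.8 in T-type cell 2 and 2355 to 10141 in every other cell. Rab7l1 had 7.3 in T-type cell 4, and Rab24 had 5.83 in T-type cell 5 and 34.7 in T-type cell 4. Rab9 had 26.3 in NR cell 4 and 32.7 in T-type cell 3. Rab27b had no read in NR cell 3 and 13.1 in M-type cell 1.

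The spread between cells was smaller for Rab genes than for all genes in 3 of 4 ranges of level. At a mean level of 1000 or more the median coefficient of variation over the 22 cells was 0.632 for 13 Rab genes and 1.00 for 2846 genes, at 100 to 1000 it was 1.16 for 21 Rab genes and 1.44 for 5651 genes, and at 10 to 100 it was 1.64 for 9 and 2.12 for 3054. Below 10 the order turned, with 3.44 for 3 Rab genes and 2.54 for 1168 genes. Rab10, at 0.632, and Rab14, at 0.499, varied little, and Rab27b, at 3.29, had the highest value of the 12 members above. Some of the 12 ran against each other from cell to cell. Over the 22 cells Rab11a and Rab31 had a Spearman correlation of -0.73 and Rab9 and Rab31 one of -0.63. Rab1 and Rab28, which also had a mean level above 1000, had one of 0.50. These were the extremes among all pairs of the 13 Rab genes with a mean level of 1000 or more. The other pairs lay between -0.44 and 0.4. These values describe the 22 cells, whose points share the size factors and depth of each library.

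**Figure D2:**
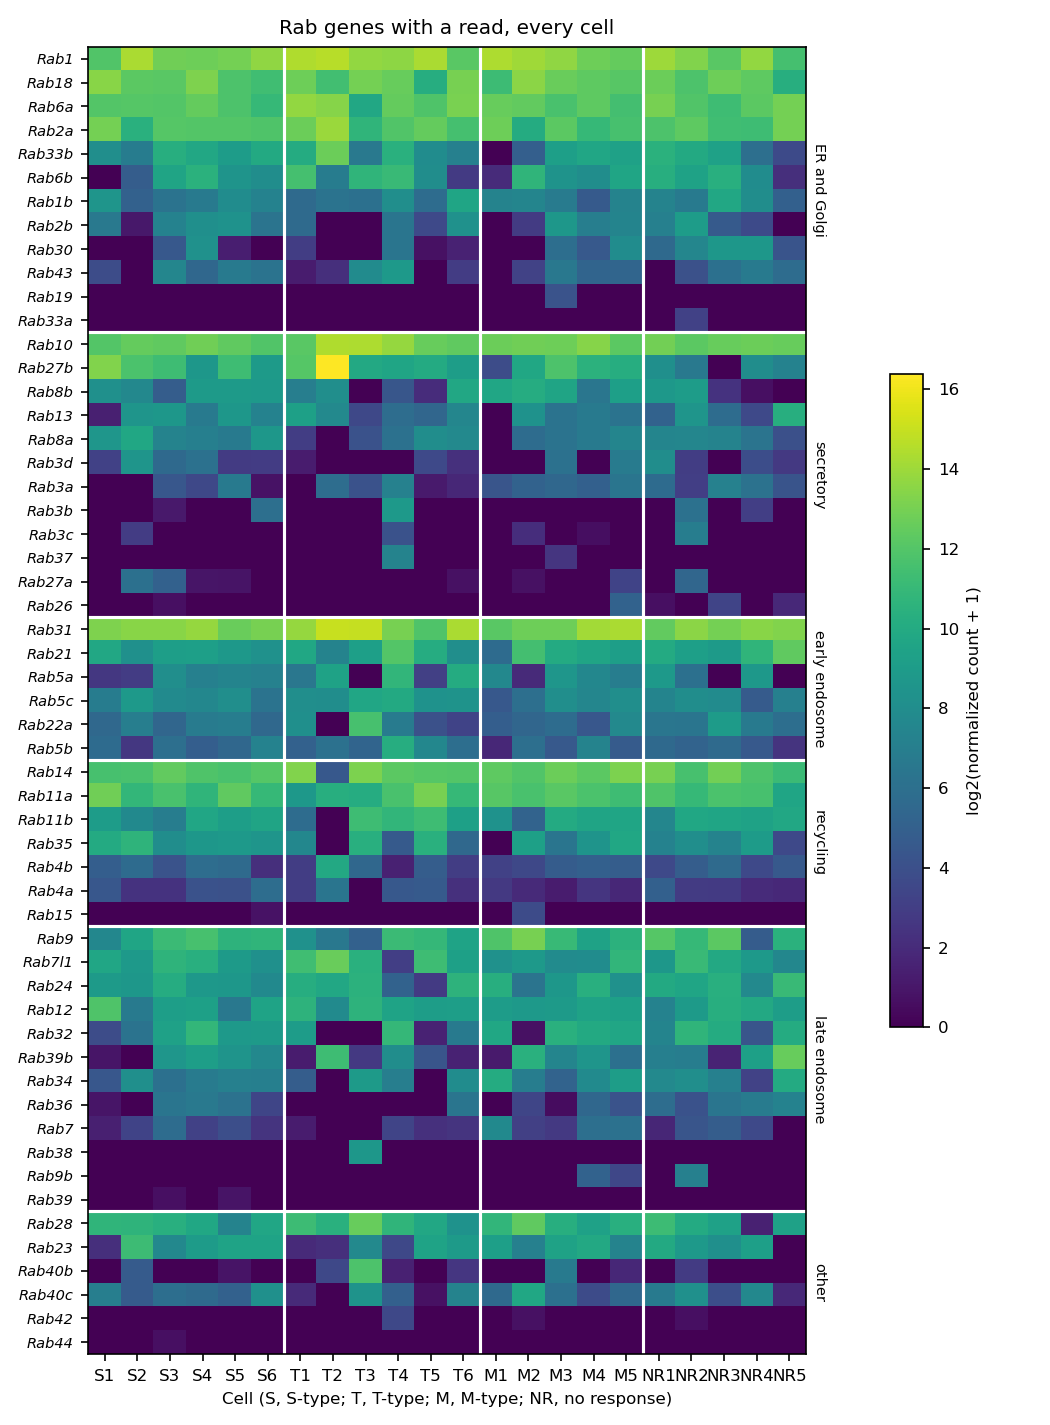
log2(normalized count + 1) of the 55 Rab genes with a read (rows, grouped by organelle) in each of the 22 cells (columns, grouped by response type, numbered within a type). The rows of Rab1, Rab10 and Rab31 are bright in every column, while Rab38 and Rab40b are bright in T-type cell 3 and Rab27b in T-type cell 2.

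The reads on all Rab genes together made up 3722 to 7149 CPM in a cell. The median was 5458 in NR cells, 6635 in M-type cells, 5663 in T-type cells and 5174 in S-type cells. The types overlapped, and the differences between the medians were smaller than the range within each type. The number of Rab genes read overlapped between all types, with a median of 38.5 in T-type cells (30 to 44) against 41 in NR (37 to 48), 43 in M-type (32 to 45) and 42 in S-type cells (38 to 46). With every cell thinned to 2937786 reads the medians were 34.5 in T-type, 39 in NR, 42 in M-type and 40 in S-type cells. Of other small GTPases, the median cell had 2502 CPM on 27 Arf and Arl genes and 2826 CPM on 27 Ras genes, against 5695 CPM on the 58 Rab genes.

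In most sets of close paralogs 1 member led in nearly every cell when values were compared per kilobase. Rab1 led over Rab1b, Rab2a over Rab2b and Rab9 over Rab9b in 22 of 22 cells, Rab6a over Rab6b and Rab11a over Rab11b in 21 of 22, Rab27b over Rab27a in 20 of the 21 cells with a read of either, and Rab32 over Rab38 in 20 of 21. Rab4b led over Rab4a in 18 of 22 cells and Rab40c over Rab40b in 18 of 22. Of the Rab5 proteins, which govern fusion of early endosomes, Rab5c led in 16 cells, Rab5a in 5 and Rab5b in 1. The other sets had no constant leader. Rab8b led in 12 cells and Rab8a in 10, both of which carry vesicles to the plasma membrane and the cilium. Of the Rab3 proteins of regulated exocytosis, Rab3a led in 12 cells, Rab3d in 7 and Rab3b in 3, and Rab3a led in all 5 M-type cells. Some of these genes share sequence with others, which may shift their reads: of the stretches of 75 bases, 54.3% in Rab2b, 52.5% in Rab4b, 74.2% in Rab43 and 44.1% in Rab24 also occur in another annotated gene, namely Gm43766 and Tox4, Gm21983, Gm45140 and Prelid1, each of which overlaps the member. Gm43766, Tox4 and Prelid1 lie on the other strand, and the sources used here do not give whether counting used strand.

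**Figure D3:**
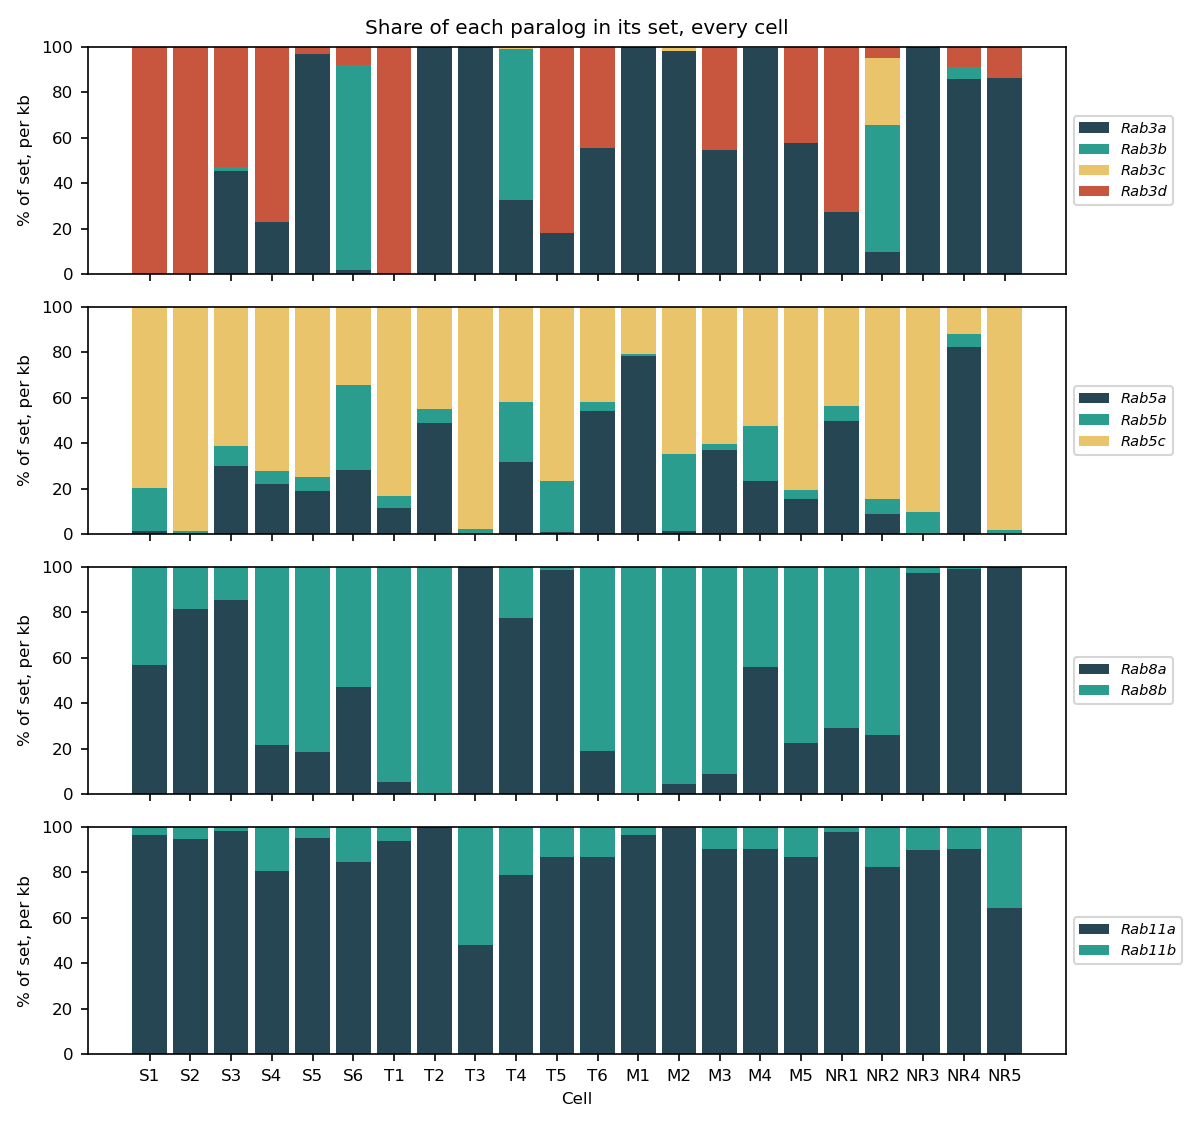
Share of each paralog in the summed normalized count per kilobase of its set (percent, stacked bars) in every cell, for the Rab3, Rab5, Rab8 and Rab11 sets. Rab11a fills at least 48.2% of the bar in every cell, while the leading member differs between cells of a type in the Rab8 set and, except in M-type cells, where Rab3a leads throughout, in the Rab3 set.

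T-type and S-type cells were compared first, which asks how a transient differs from a sustained response. Rab genes were more often higher than lower in T-type cells: of 45 with a ratio, 15 were at least 2-fold higher and 8 at least 2-fold lower, shares of 33.3% and 17.8%, where 25.8% and 32.6% of all 12504 genes with a ratio lay that far apart. The median log2 ratio was 0.68 for the Rab genes and -0.09 for all genes. Both values moved with the scaling of the cells and with 2 of the cells. With CPM in place of size factors the median of all genes moved to -0.46 and that of the Rab genes to 0.06. With CPM 8 Rab genes were higher and 10 lower, so 44.4% of these Rab calls were higher. With size factors it was 65.2% of the Rab calls. Without T-type cells 2 and 3 the median was 0.05 for Rab genes and -0.29 for all genes, with 8 Rab genes higher and 11 lower. With the median cell in place of the mean the medians were -0.01 and -0.73, with 7 Rab genes higher and 16 lower. The Rab median thus stayed above that of all genes under these settings, for which the share of all genes past 2-fold is not given. Leaving out T-type cell 2 alone gave a Rab median of 0.100. For 0 of 46 Rab genes were the T-type and S-type cells fully apart, against 0.771% of all genes.

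Grouped by organelle, early endosome Rabs had the highest median log2 ratio in that comparison, at 1.70. In T-type cells 5 of 6 were at least 2-fold higher, where 25.8% of all genes were. The count was 4 of 6 without T-type cells 2 and 3 (median 1.36) and also with CPM (1.46). With the median cell it was only 1 of 6 (0.62). The share of all genes is not given for these other settings. Rab5a, which starts early endosome fusion, had 5.33 to 270.4 (median 141) in S-type cells and 0 to 1800.4 (median 389) in T-type cells. Its T-type level rested on cells 2, 4 and 6, and the other 3 lay within the S-type range or below it. The log2 ratio of Rab5a was 2.32 (95% counting interval 2.22 to 2.43, 1.61 to 2.72 with each cell left out). Rab22a, a relative of Rab5 in endosome sorting, had 3218 in T-type cell 3 and at most 283 in the other T-type cells, and its ratio of 2.88 became 0.03 without that cell. Rab5b likewise had 1200.3 in T-type cell 4, and its ratio of 2.21 became 0.43 without it. Rab5c was higher by 1.16 (0.86 to 1.52 with each cell left out) and Rab21, which traffics integrins, by 1.19 (0.22 without T-type cell 4). Rab31, the remaining early endosome member, was below 2-fold at 0.88.

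Among the other members higher in T-type cells, the ratios of Rab3b, Rab3c, Rab4b, Rab27b, Rab33b and Rab40b changed sign when 1 cell was left out. Rab40b, a Rab with a SOCS box that binds a ubiquitin ligase, had 3600.0 in T-type cell 3 and 0 to 24.9 in S-type cells, and its log2 ratio of 7.14 became -0.27 without that cell. Rab3b had 471 in T-type cell 4 and no read in the other 5 T-type cells, so its ratio of 2.86 rests on that cell alone. Rab4b had 943 in T-type cell 2 and at most 43.6 in the others, and its ratio of 2.29 became -1.0 without it. Rab27b, described with the NR cells below, had 86041 in T-type cell 2, and its ratio of 2.26 became -1.09 without that cell. The abundant Rab10 (1.21, 0.95 to 1.38) and Rab7l1 (1.44, 0.78 to 1.75) stayed positive with each cell left out, as did Rab6b (1.37, 0.86 to 2.09) and Rab11b (1.31, 0.98 to 1.57).

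Members lower in T-type than in S-type cells were Rab3d, Rab8a and Rab27a of secretory traffic, Rab2b and Rab30 of the Golgi, Rab7 and Rab36 of the late endosome, and Rab23 of the cilium. Rab3d, of secretory granules, had 6.28 to 371 (median 27.4) in S-type cells and 0 to 11 (median 0.704) in T-type cells. Every S-type cell had a Rab3d read, 3 of 6 T-type cells had none, and the ranges met only because T-type cell 5 lay above 3 S-type cells. The log2 ratio was -4.96 (counting interval -5.61 to -4.37, -6.33 to -3.32 with each cell left out). Rab8a had 108 to 858 (median 275) in S-type cells and 0 to 257 (median 42.8) in T-type cells, with a ratio of -1.89 (-2.52 to -1.38). Rab23, a regulator of Hedgehog signalling at the cilium, had 3.55 to 2382 (median 619.6) in S-type cells and 2.82 to 715 (median 112) in T-type cells, with a ratio of -1.67 (-2.40 to -0.87). In both genes the cells of the types overlapped and S-type cell 2 was the highest of all. Rab36 was read in 1 T-type cell at 82.6 and in 5 S-type cells at up to 99.0, a ratio of -1.68. Rab30 had 315 in S-type cell 4, and its ratio of -1.91 became 1.67 without that cell.

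**Figure D4:**
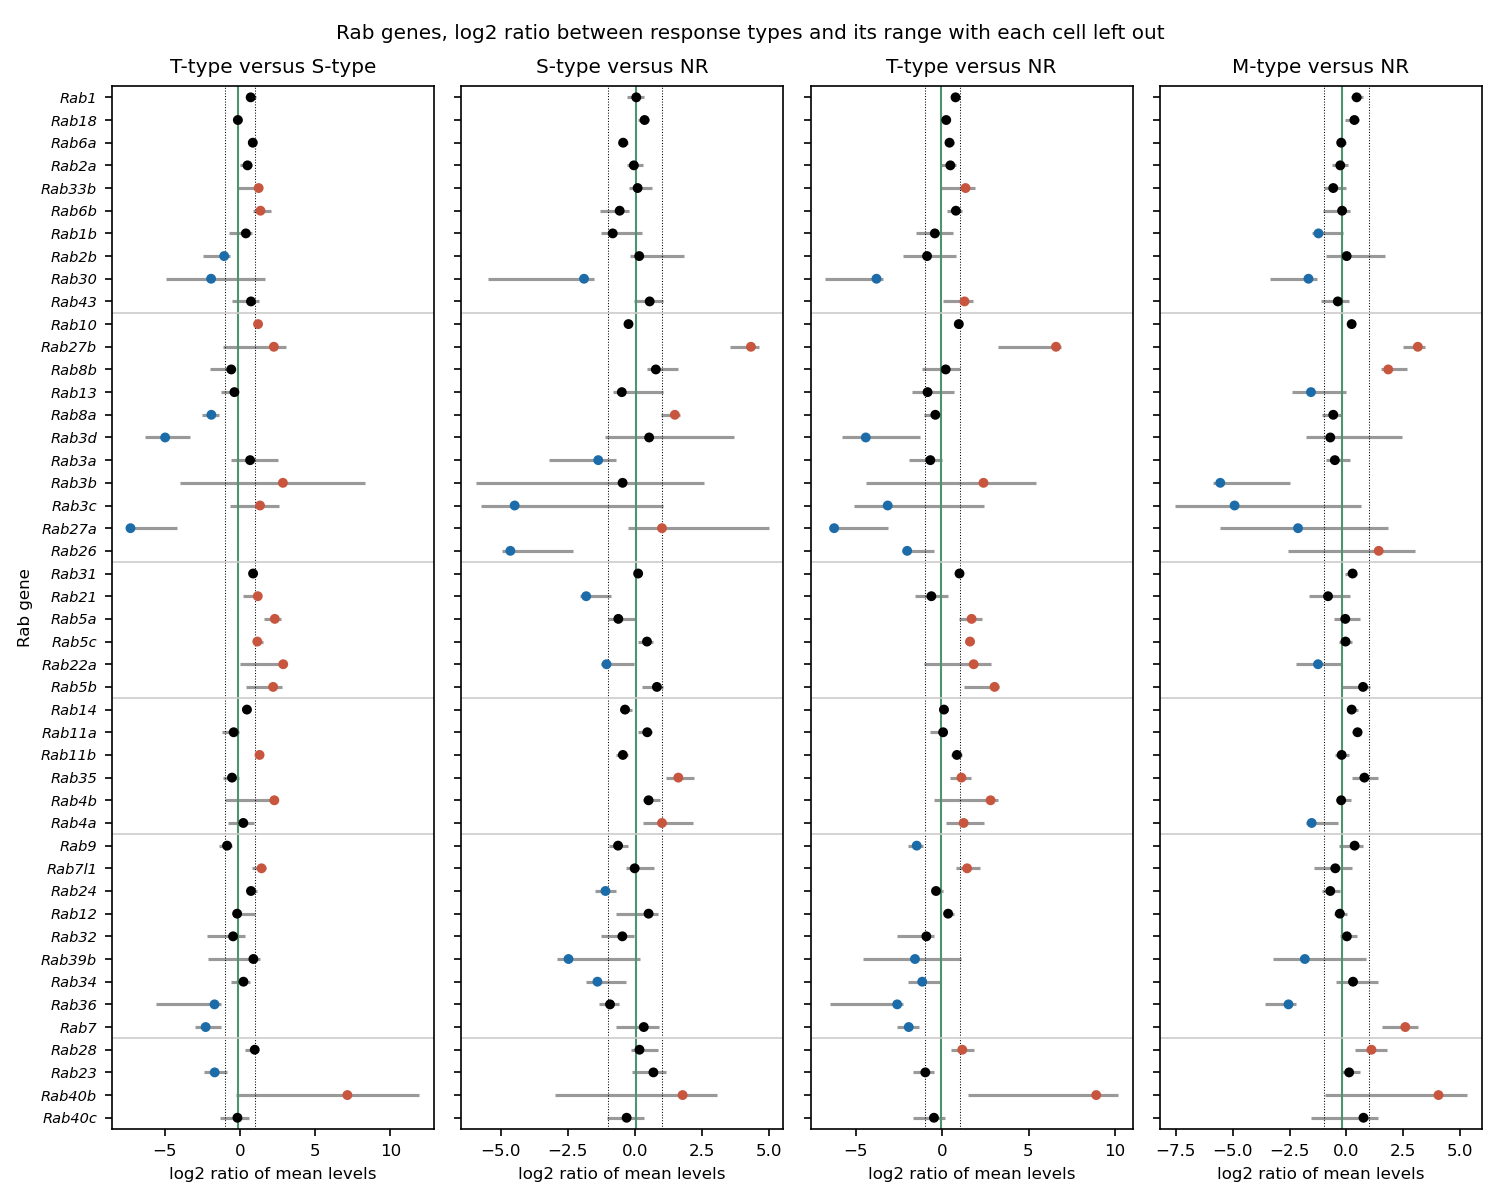
log2 ratio of the mean levels (points) of 46 Rab genes, ordered by organelle, in the 4 comparisons (x axes differ in range), with the range of the ratio when each cell is left out in turn (grey bars), the median of all genes (green line) and 2-fold limits (dotted lines). Red points are at least 2-fold higher and blue points at least 2-fold lower; in T-type versus S-type the bars of Rab3b, Rab4b, Rab27b and Rab40b, all past 2-fold, reach across 0.

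S-type and NR cells were compared to see how a sustained response differs from no response. Of 46 Rab genes, 6 were at least 2-fold higher in S-type cells (13.0%, against 25.1% of all 12621 genes) and 9 at least 2-fold lower (19.6%, against 22.5%), and the median log2 ratio was -0.03 for Rab genes and 0.03 for all genes. The median for Rab genes was between -0.238, without S-type cell 2, and 0.239, without NR cell 2. Cells of the 2 types did not overlap for 1 Rab gene, Rab27b (2.17% of 46, against 0.409% of all genes). The 5 NR cells also serve the 2 comparisons that follow, so the 3 are not independent of each other.

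Rab27b, which docks secretory vesicles at the plasma membrane, had 412 to 10179 (median 2529) in S-type cells and 288, 99.8, 0, 267 and 154.8 in NR cells 1 to 5. All 6 S-type cells lay above all 5 NR cells, of which 1 had no read. The log2 ratio was 4.33 (counting interval 4.25 to 4.42, 3.54 to 4.65 with each cell left out). Its paralog Rab27a was read in 4 S-type cells and in 1 NR cell, at 40.8 in NR cell 2, and had a ratio of 1.01 that became -0.24 without S-type cell 2. Rab35, of fast recycling at the plasma membrane, had 266 to 1625 (median 419) in S-type cells and 151.8, 276, 156.8, 519 and 11.1 in NR cells. The values overlapped, with NR cell 4 above 4 S-type cells, and the ratio was 1.62 (1.16 to 2.21). Rab8a, given for S-type cells above, had 173.01, 182.6, 161.1, 79.5 and 14.8 in NR cells and a ratio of 1.49 (0.98 to 1.68). Rab4a, of rapid recycling, was low in both types and had a ratio of 1.01 (0.31 to 2.16).

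Members lower in S-type than in NR cells came from several organelles. Rab39b, a gene of neuronal and autophagic traffic, had 0 to 577 (median 275) in S-type cells and 135, 122, 2.16, 624 and 6187 in NR cells. NR cells 4 and 5 lay above every S-type cell, and NR cells 1 to 3 lay within the S-type range. The ratio of -2.48 became 0.20 without NR cell 5. Rab21 had 298 to 913 (median 512) in S-type cells and 1056, 612, 498, 1702 and 5434 in NR cells, with a ratio of -1.82 (-2.06 to -0.88). Rab30 had reads in 3 of 6 S-type cells, at 21.9, 315 and 1.57, and 48.6, 179.8, 407, 399.5 and 18.5 in NR cells. Every NR cell had a Rab30 read, and the ratio was -1.90 (-5.49 to -1.52). Rab34, which positions lysosomes and helps build cilia, had a ratio of -1.40 (-1.83 to -0.33), nearest to 0 without NR cell 5. Rab3c, a synaptic vesicle Rab, had 122 in NR cell 2 and no read in the other NR cells, so its ratio of -4.49 rests on that cell alone.

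**Figure D5:**
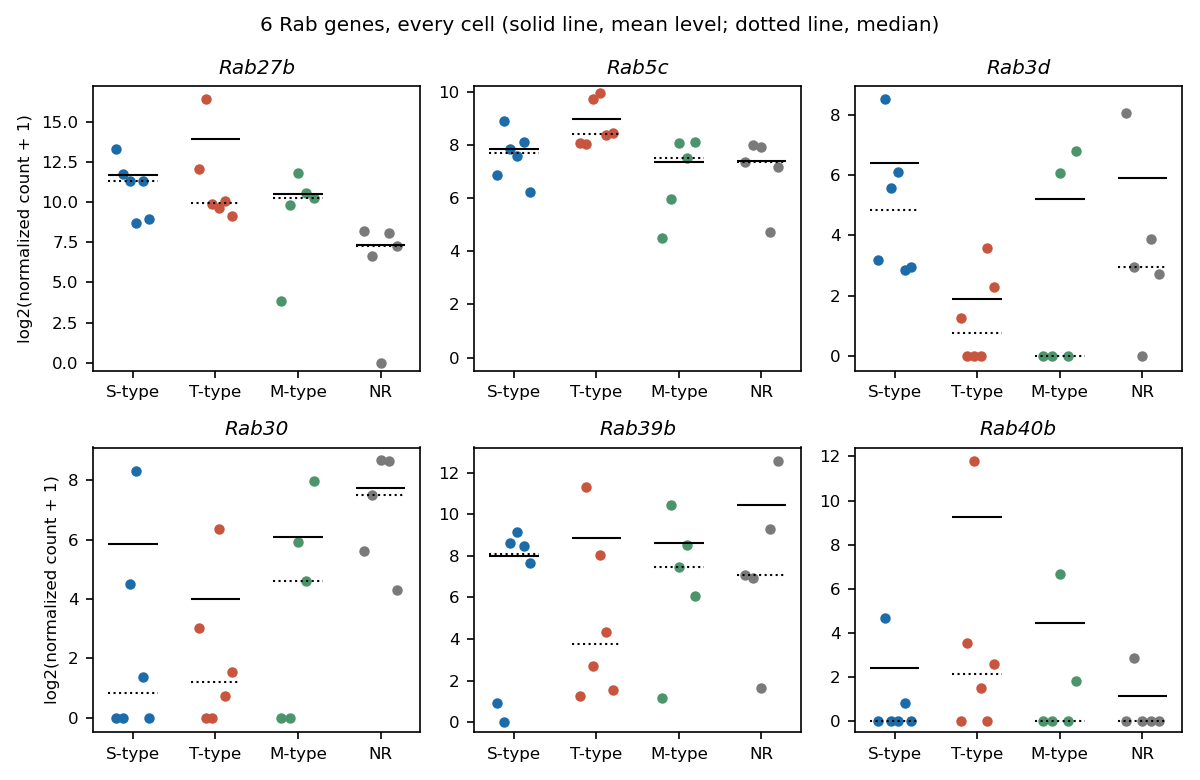
log2(normalized count + 1) of 6 Rab genes in every cell (1 point a cell), with the mean level of a type as a solid line and its median as a dotted line. The 6 S-type and 6 T-type points of Rab27b all lie above the 5 NR points, while the mean lines of Rab40b in T-type and Rab39b in NR cells lie far above their medians because 1 cell is high.

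T-type and NR cells were compared for the transient response. At least 2-fold higher in T-type cells were 14 of 46 Rab genes (30.4%, against 28.4% of all 12487 genes), and 10 were at least 2-fold lower (21.7%, against 32.8%), with a median log2 ratio of 0.22 for Rab genes and -0.07 for all genes. With CPM 9 Rab genes were higher and 15 lower, so 37.5% of these Rab calls were higher, where it was 58.3% with size factors. The medians with CPM were -0.18 for Rab genes and -0.46 for all genes. Without T-type cells 2 and 3 the Rab counts were 6 and 11, and these medians were 0.155 and -0.275. The median for Rab genes was between 0.045, without T-type cell 2, and 0.542, without NR cell 2. With size factors the cells did not overlap for 2 Rab genes, Rab5c and Rab27b (4.35% of 46, against 0.991% of all genes).

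Rab5c had 261 to 985 (median 339.8) in T-type cells and 163.9, 257, 240.2, 25.1 and 142 in NR cells. The gap between the types was narrow, since T-type cell 2 at 261 lay just above NR cell 2. As a share of reads the cells of the 2 types overlapped. T-type cell 2 had 72 Rab5c reads of 12564138, and NR cell 2 had 453 of 17777436. The log2 ratio was 1.61 (counting interval 1.51 to 1.72, 1.31 to 1.83 with each cell left out). Rab27b had 569 to 86041 (median 1000.4) in T-type cells, of which T-type cell 2 was by far the highest, and its ratio to NR of 6.59 became 3.24 without that cell. Its median of 1000.4 in T-type cells lay below that of S-type cells, 2529, although the mean lay above. Rab5b had 47.4, 36.9, 50.3, 23.3 and 4.63 in NR cells and a ratio of 3.03, which became 1.25 without T-type cell 4. Of the 6 early endosome members 4 were at least 2-fold higher than in NR cells (median log2 ratio 1.66), where 28.4% of all genes were. The count was 3 of 6 without T-type cells 2 and 3 (0.94) and 2 of 6 with the median cell (0.82). The ratio of Rab40b (8.92) became 1.51 without T-type cell 3, and that of Rab4b (2.80) became -0.49 without T-type cell 2. That of Rab3b (2.39) rests on T-type cell 4.

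Of 9 late endosome and lysosome members 5 were at least 2-fold lower in T-type than in NR cells, where 32.8% of all genes were. Only 1 was at least 2-fold higher, where 28.4% of all genes were, and the median log2 ratio was -1.16. Without T-type cells 2 and 3 the count of lower members was 4 of 9 (-0.93), and with CPM 6 of 9 (-1.17). The share of all genes is not given for these 2 settings. Rab9, which returns receptors from late endosomes to the trans-Golgi network, had 32.7 to 2293 (median 526) in T-type cells and 4256, 2034, 4925, 26.3 and 1437 in NR cells. NR cell 4 lay below every T-type cell, and 4 of 5 NR cells lay above 4 of 6 T-type cells. The ratio of Rab9 was -1.48 (-2.01 to -1.10 with each cell left out). Rab7, the main Rab of the late endosome, was hardly read in any type, with 900 reads in all, and had a ratio of -1.94 (-2.63 to -1.37). Of its stretches of 75 bases 10.2% are shared, most of them with the pseudogene Rab7-ps1, and per the study's methods reads that align equally well to 2 places were not counted. Rab36, read in 1 T-type cell and in all 5 NR cells, had a ratio of -2.61, and Rab39b one of -1.58 that became 1.09 without NR cell 5. Rab7l1 went the other way at 1.44 (0.77 to 2.18).

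Rab30 of the Golgi and Rab3c, Rab3d, Rab26 and Rab27a of secretory vesicles were also at least 2-fold lower in T-type than in NR cells. Rab30 had 0 to 80.3 (median 1.28) in T-type cells against 18.5 to 407 in NR cells, with T-type cell 4 the only one above the lowest NR cell. Its ratio was -3.81 (-6.78 to -3.43). Rab3d had 266, 6.81, 0, 13.8 and 5.56 in NR cells, with NR cell 1 the highest, and its ratio of -4.43 became -1.27 without that cell. Rab3c had a ratio of -3.16, for which the NR reads came from NR cell 2 alone.

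M-type and NR cells were compared for the mixed response. At least 2-fold higher in M-type cells were 6 of 46 Rab genes (13.0%, against 19.8% of all 12614 genes), and 10 were at least 2-fold lower (21.7%, against 28.1%). The median log2 ratio was -0.20 for Rab genes and -0.20 for all genes, and that for Rab genes was between -0.312, without M-type cell 3, and 0.109, without NR cell 2. The cells did not overlap for 0 of 46 Rab genes, against 0.598% of all genes.

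Rab27b had 13.1, 884, 3527, 1496 and 1203 in M-type cells 1 to 5. M-type cells 2 to 5 lay above every NR cell and M-type cell 1 below 4 of them, and the log2 ratio was 3.14 (2.47 to 3.46 with each cell left out). Rab8b had 821, 1133, 751, 85.1 and 613 in M-type cells and 423, 526, 4.32, 0.598 and 0 in NR cells. NR cells 3 to 5 were nearly without Rab8b while NR cells 1 and 2 lay within the M-type range, and the ratio was 1.84 (1.51 to 2.67). Rab7 had 221, 7.7, 5.63, 63.3 and 67 in M-type cells and 2.43, 18.7, 28, 11.4 and 0 in NR cells, with a ratio of 2.59 (1.57 to 3.17). Rab28, a ciliary and phagocytic Rab, had a ratio of 1.1 (0.37 to 1.78). Rab40b rested on M-type cell 3 at 101, and its ratio of 4.05 became -0.95 without that cell.

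Members lower in M-type than in NR cells again included Rab30, Rab36 and Rab39b. Rab36 had 0, 9.8, 0.469, 44.1 and 17.7 in M-type cells and 57.1, 16.4, 83.4, 114 and 150.2 in NR cells, with a ratio of -2.55 (-3.59 to -2.22). Rab30 had 0, 0, 59.5, 23.3 and 249 in M-type cells, with a ratio of -1.67 (-3.35 to -1.28). Rab39b (-1.83) became 0.85 without NR cell 5, the NR reads behind the Rab3c ratio (-4.92) came from NR cell 2 alone, and Rab13 of cell junctions (-1.56) became -0.01 without NR cell 5. Microglial marker reads in NR cells 2 and 5 were 51.8 and 0.792 CPM and neuronal marker reads 234 and 611, and the part of these cell type markers in the Rab values was not tested.

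The genes that act on Rab proteins were taken as lists. Of 33 GAPs with a ratio, 16 were at least 2-fold lower and 4 at least 2-fold higher in T-type than in S-type cells (median log2 ratio -0.95), where 32.6% of all genes were lower and 25.8% higher. In T-type against NR cells 16 of 33 were lower and 5 higher (-0.66), where these shares were 32.8% and 28.4%. Without T-type cells 2 and 3 the counts were 16 lower and 4 higher of 32 against S-type and 16 lower and 7 higher of 33 against NR. The 3 GAPs with the most reads had log2 ratios, to S-type and to NR, of -0.08 and 0.82 for Evi5, -1.11 and -0.38 for Rabgap1, and 0.63 and 0.75 for Tbc1d15, a GAP for Rab7. Of 40 GEFs 10 were higher and 16 lower in T-type than in S-type cells, and of 46 effectors 9 were higher and 13 lower. The shares of all genes are those given for the GAPs. Without T-type cells 2 and 3 the counts were 10 and 17 for GEFs and 6 and 17 for effectors. Of the 8 prenylation and GDI genes, Gdi2, the widespread inhibitor that extracts Rabs from membranes, had levels of 7631 in NR, 7249 in M-type, 9640 in T-type and 6153 in S-type cells. Rabggtb, the catalytic subunit of the prenyl transferase for Rabs, had 7056 in S-type cells against 1707 in T-type, 2567 in NR and 2701 in M-type cells, with log2 ratios of 1.46 to NR and -2.05 for T-type versus S-type. In S-type against NR cells 6 of 33 GAPs were higher and 3 lower (median 0.12), 8 of 41 GEFs higher and 10 lower (-0.01), and 12 of 46 effectors higher and 8 lower (0.19), where 25.1% of all genes were higher and 22.5% lower.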

How the data were processed

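The authors deposited 1 table of read counts per gene for 22 single astrocytes, made from amplified RNA without molecular identifiers. Per the study's methods, reads were trimmed, aligned to GRCm38 (GENCODE) with STAR, and uniquely aligned exonic reads were counted with VERSE; the submitters' processing notes name HTSeq. Versions and the strand setting are not given in the sources used here. Each cell was scaled by a median-of-ratios factor over the 3670 genes read in all cells, and the level of a type is the mean over its cells. A type without a read was set to 3 reads over its summed size factors, and no ratio was taken where both types had 3 reads or fewer. Ratios were computed for genes with a read in at least 5 of the 22 cells, and those of at least 2-fold were counted. Because the labels tie no cell to a pup or culture, cells of a type are not replicates and no test was made. Counting intervals are exact binomial at 95% and cover counting error only. Exon lengths and shared sequence came from GENCODE for GRCm38, and promoters from the RefSeq table for GRCm38.p6, where 48 of 58 members matched.

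Named with values were the 12 members with the highest level per kilobase, per comparison up to 5 members a direction past 2-fold with a mean level of at least 10, members whose cells did not overlap, seldom read members, paralog sets and Rab3d, and of other lists the 3 genes with the most reads. Rab6b, Rab7l1, Rab10, Rab11b, Rab21 and other members outside this rule in a comparison were added after their values were seen. Members and lists were chosen with earlier results of these data known. Alternatives were edgeR TMM factors, CPM averaged or pooled, the median cell, a pseudocount of 1, other filters, cells thinned to 2937786 reads, each cell left out and, chosen after seeing the data, both T-type cells of smallest size factor left out. Python 3.11.15, NumPy 2.4.6, pandas 2.3.3, SciPy 1.17.1, matplotlib 3.10.9, R 4.3.3 and edgeR 4.0.16 were used, and the scripts were tested on simulated data.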

Additional observations from a re-analysis of the deposited data

Results flagged for a closer look

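Of 36 sets of per-cell values, 4 held a cell that stood far from the others of its type. Whether that is more than chance gives was not tested, since cells of a type are not replicates. M-type cell 1 had a read for 32 Rab genes, against 42 to 45 in the other M-type cells. Reads on the ciliary and other Rab genes were 260.7 CPM (counts in 1000000 reads) in S-type cell 2 (94.4 to 154.8 in the other S-type cells), 641 in T-type cell 3 (29.5 to 146) and 473 in M-type cell 2 (158.9 to 206).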

How the results depend on the processing

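No paired analysis was possible because the results come from no test and the replicate numbers only name cells. With CPM averaged over cells the median log2 ratio of the Rab genes was 0.059 in T-type versus S-type and -0.184 in T-type versus NR, with 8 and 9 genes at least 2-fold higher. With pooled CPM it was -0.241 and -0.206, with 5 and 6 higher. With the median cell it was -0.007 in T-type versus S-type, with 7 higher and 16 lower, and 9 were higher in T-type and 10 in S-type versus NR. Without the 2 T-type cells of smallest size factor it was 0.052 in T-type versus S-type, with 8 higher, and 6 were higher in T-type versus NR. Without a filter it was 0.726 in T-type versus S-type and with a mean level of at least 10 it was 0.699. The median of all genes in T-type versus S-type was -0.459 with CPM averaged and -0.564 with pooled CPM. For all genes it was -0.731 with the median cell and -0.287 without the 2 T-type cells. At 10 reads the median number of Rab genes was 38 in S-type and 30 in T-type cells. With the Rab reads of a cell scaled by its size factor and not by its total reads, the order of the types changed. On that common scale the median was 5623 in T-type, 4282 in M-type, 4003 in S-type and 3781 in NR cells. This put T-type cells, which include the smallest size factors, highest in place of M-type cells. These values are not shares of the reads of a cell.

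With the median cell the log2 ratio changed sign for Rab22a (-0.30), Rab30 (0.68) and Rab4b (-1.12) in T-type versus S-type, Rab39b (1.03) and Rab3c (0.02) in S-type versus NR, Rab3c (0.65) and Rab4b (-0.38) in T-type versus NR, and Rab13 (0.48), Rab39b (0.39) and Rab40b (-0.32) in M-type versus NR. Without the 2 T-type cells it was -1.30 for Rab40b and -1.68 for Rab4b in T-type versus S-type, and -1.17 for Rab4b in T-type versus NR. With each cell left out the ratio spanned, in T-type versus S-type, -4.88 to 1.67 for Rab30, -3.95 to 8.33 for Rab3b, -0.27 to 11.91 for Rab40b and -1.0 to 2.55 for Rab4b. In S-type versus NR it spanned -0.24 to 4.99 for Rab27a, -2.91 to 0.20 for Rab39b and -5.73 to 1.06 for Rab3c. In T-type versus NR it spanned -4.60 to 1.09 for Rab39b, -4.41 to 5.45 for Rab3b, -5.12 to 2.40 for Rab3c and -0.49 to 3.23 for Rab4b. In M-type versus NR it spanned -3.21 to 0.85 for Rab39b, -7.56 to 0.63 for Rab3c and -0.95 to 5.32 for Rab40b. Ends of these ranges for Rab3b and Rab3c use the floor of 3 reads for a type left without a read. Of the other values for named genes, 418 with a cell left out and 313 under other settings kept their direction and their side of 2-fold, and 19 and 20 kept their direction but fell below 2-fold. The cause was not tested. With 2937786 reads in the shallowest cell, genes of few reads could not be ranked between types.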
